A study of Sus scrofa with 20 samples.

Results

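The let-7 family was followed in the adrenal gland through the probe sets that the Affymetrix Porcine Snowball array carries for the precursors of let-7 and mir-98. The members were chosen by name as all probe sets with a species prefix (hsa for human, bta for cattle, mmu for mouse, ssc for pig) and let-7 or mir-98 in the identifier. This gave 18 probe sets of 13 precursor names, out of 1858 probe sets for miRNA precursors and 47722 probe sets in all. Cattle hairpins contributed 11 of them, mouse hairpins 4, human hairpins 2 and the pig hairpin of let-7g 1. The family drew attention because the mouse mir-98 probe set had the smallest p of the whole table between the groups compared here, so that this difference is given as a description and without a test.

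The animals were 20 German Landrace pigs, labelled as adult and slaughtered at some months of age according to the methods, of which 10 had a high-reactive (HR) and 10 a low-reactive (LR) coping pattern. Coping was scored in the first weeks of life by the backtest, which records how often and how long a piglet laid on its back tries to escape, and HR and LR pigs also carried different haplotypes at a QTL for coping behavior. No treatment was given, and the labels name no batch, litter or sex. RNA of the whole adrenal gland of each animal was hybridized to its own array, and the authors deposited log2 values normalized by robust multichip averaging (RMA), so that a difference of 1 is a doubling.

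MicroRNAs of the let-7 family are cut from a hairpin precursor by the nucleases Drosha and Dicer, and the mature strand represses mRNAs that carry matching sites. In vertebrates the family has several genes with nearly the same mature sequence, mir-98 among them, and LIN28 proteins block their maturation in early development. The family is known for high levels of the mature miRNAs in adult tissues and for targets in growth and cell division. The probe sets described here belong to precursors and do not measure the mature miRNA. As the precursor, its primary transcript and other RNA that binds the same probes contribute to a value alike, they cannot be told apart on the array.

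A sequence of the family in the sources is the forward primer with which the study quantified mature let-7g-5p by PCR, shown because the primer is built on the mature strand and not on the precursor that the array addresses.
let-7g-5p forward primer: cgcagtgaggtagtagtttg
The primer is 20 bases long and is given as 1 run from 5′ to 3′. Sequences of the array probes and of the hairpins were not used here.

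On the pig genome (Sscrofa11.1, RefSeq) the let-7 and mir-98 precursors listed there lay at 7 places. No precursor was listed under the names let-7b, let-7a-3 or let-7c-2, so that these were not located. The hairpins of let-7a-2 (chr3:43465667-43465758), let-7f-2 (chr3:43466034-43466130) and let-7d (chr3:43468501-43468596) formed a cluster in which 275 bases separated the first from the second and 2370 bases the second from the third. The hairpins of mir-98 (chrX:46302381-46302460) and let-7f-1 (chrX:46303245-46303327) were 784 bases apart, and both lay inside HUWE1, the gene of a ubiquitin ligase (chrX:46281958-46444315). The hairpin of let-7g (chr13:34406140-34406219) lay inside WDR82, whose product belongs to a histone methyltransferase complex (chr13:34387799-34412190). Hairpins of let-7i (chr5:27252802-27252886), let-7e (chr6:58332042-58332121), let-7a-1 (chr9:49152586-49152665) and let-7c (chr13:181303209-181303302) had no other let-7 precursor of the table beside them. Numbers of precursors such as let-7a-1 and let-7a-2 differ between species, so that a cattle or mouse probe set was not assigned to a pig locus by its number.

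The arrays were alike in their medians, which lay between 4.74 and 4.81 on the log2 scale. The array of animal HR2835 stood apart, as it correlated at 0.938 on average with the rest, against 0.977 to 0.983 for the remaining 19. Over the precursor probe sets alone the gap was smaller, with 0.946 for HR2835 against 0.953 to 0.962 for the remaining 19. HR2835 also held the highest or the lowest value of all 20 animals in 7 of the 18 let-7 and mir-98 probe sets, while the next animal, LR2579, did so in 4. Its value lay over 2 SD from the mean of the other animals in 2 of the 18, as many as in LR2579 and some other animals. Values without HR2835 are therefore given beside many of the results that moved with it, and for every let-7 and mir-98 probe set in the plot of differences. The tissue label was met by steroid enzymes and other cortex genes, whose mean over 7 measured markers lay between 12.74 and 13.15 in HR and between 12.97 and 13.12 in LR, and by 7 markers of chromaffin cells at 9.58 to 10.46 in HR and 9.09 to 10.51 in LR. All 8 capsule and fibroblast markers had the lower mean in HR (8.05 to 9.41 in HR animals and 8.92 to 9.99 in LR animals, HR2835 being the lowest). All 3 measured zona glomerulosa markers also had the lower mean in HR (9.10 to 10.20 in HR animals and 9.38 to 10.55 in LR animals), and all 4 measured red blood cell markers had the higher mean in HR. The 7 cortex and 3 measured Schwann and sustentacular cell markers were likewise all lower in HR, where 50.9% of all probe sets had the higher mean in HR. Without HR2835, 4 cortex markers and 1 Schwann and sustentacular cell marker were lower in HR. The directions of the capsule, zona glomerulosa and red blood cell markers held without this animal. Whether these cell types had a part in the values below was not tested. Fewer cells of a type and less RNA per cell cannot be told apart in such samples.

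The let-7 and mir-98 probe sets were dim. Their means over all animals extended from 1.61 to 5.82 with a median of 3.33, against a median of 3.18 over all precursor probe sets and of 4.78 over all probe sets. Human let-7b had the highest mean, 5.91 ± 0.43 in HR and 5.74 ± 0.36 in LR (SD of 10 animals each), above 82.1% of all precursor probe sets. Next came human mir-98 with 5.57 over all animals, cattle let-7i with 5.39, mouse let-7b with 5.24, cattle let-7a-1 with 5.21 and cattle let-7d with 5.14. Cattle let-7b (4.76) and cattle let-7f-1 (4.43) followed. Between 2.8 and 3.4 lay mouse let-7c-2 (3.37), mouse let-7a-2 (3.29), pig let-7g (3.08), cattle let-7e (2.95), cattle let-7a-2 (2.94) and cattle let-7a-3 (2.84). The lowest means belonged to mouse mir-98 (2.35), cattle let-7f-2 (2.25), cattle mir-98 (1.64) and cattle let-7c (1.61). A level depends on the probes of each set, so that this order describes probe sets and not amounts of the precursors.

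**Figure D1:**
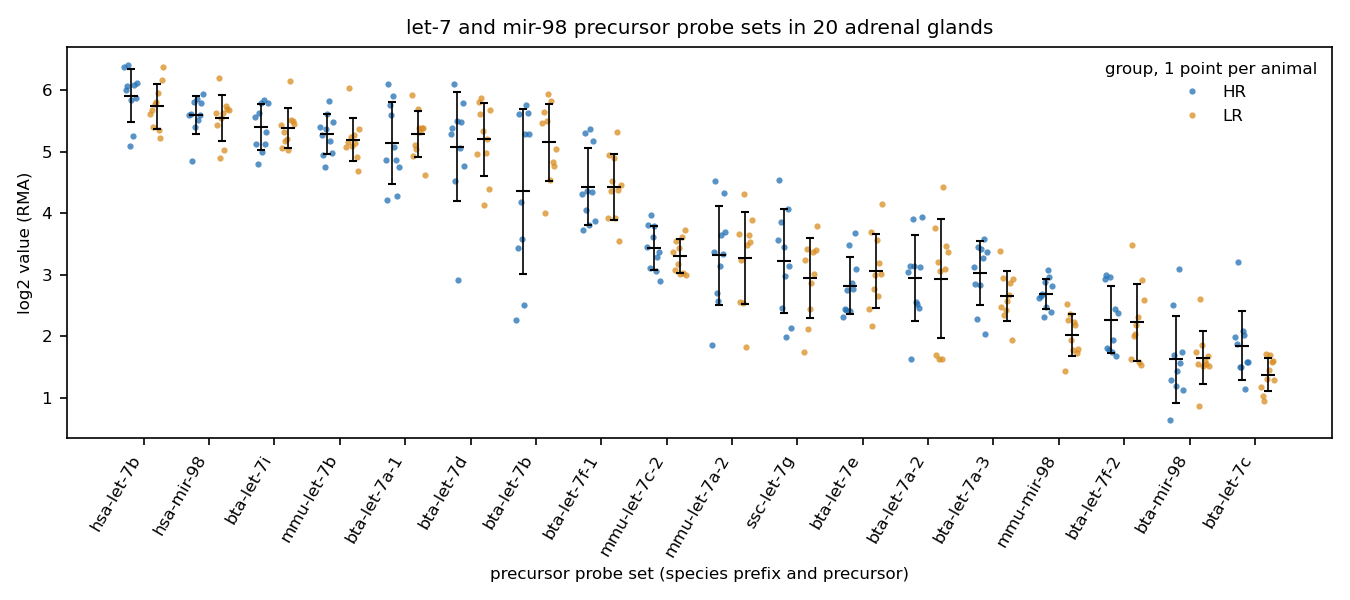
Log2 values (RMA) of the 18 probe sets, with 1 point per animal, HR in blue left of LR in orange, and mean ± SD as black bars; probe sets are ordered by their mean from 5.82 to 1.61. HR and LR overlap in every probe set, and the narrowest overlap is that of mouse mir-98.

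The array carries background control probe sets sorted by the number of G and C bases of their probes, and these put the levels in context. The mean of these controls was 1.31 at 4 such bases, 2.40 at 13, 4.01 at 15, 5.53 at 17 and 8.10 at 23. All 18 let-7 and mir-98 probe sets had a mean above the controls with 10 G and C bases, 14 above those with 13, 8 above those with 15, 2 above those with 17 and 0 above those with 18 or more. As the base composition of the let-7 probes is not known from the sources used here, no probe set could be called above or below its own background. Human let-7b and human mir-98 were the members above the controls with 17 G and C bases.

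**Figure D2:**
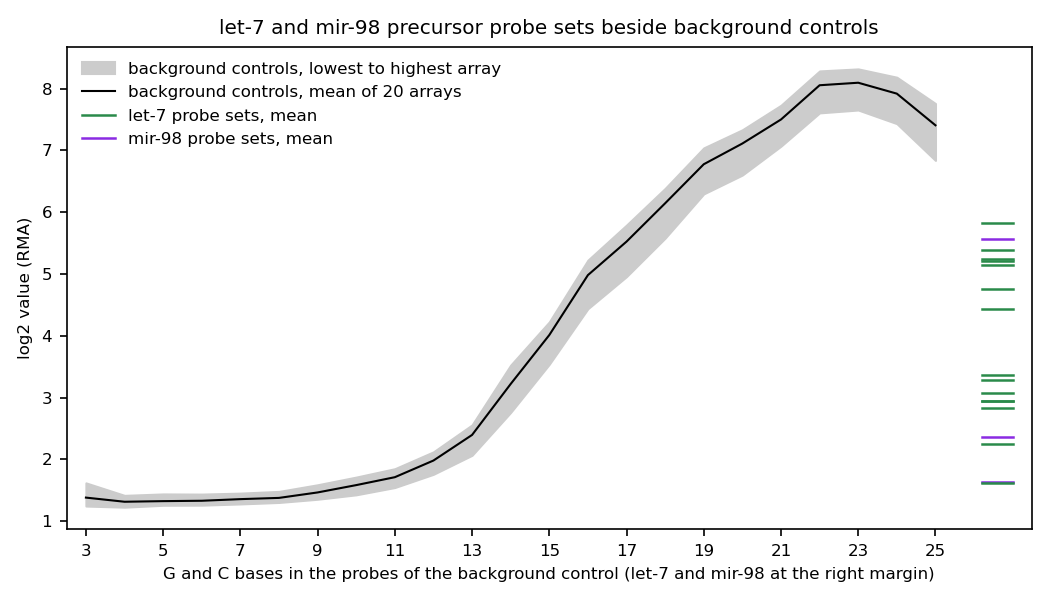
Mean log2 value of the background controls (line) and its range over the 20 arrays (grey) against the number of G and C bases in their probes, with the means of the let-7 (green) and mir-98 (purple) probe sets at the right. The means of 1.61 to 5.82 lie within the span of the controls, which reach 8.10.

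The spread between animals was wide beside that of other probe sets. The median SD over the 18 members was 0.54, against 0.42 over all precursor probe sets and 0.26 over all probe sets. Cattle let-7b varied most (SD 1.1 over 20 animals) and mouse let-7c-2 least (SD 0.32).

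HR and LR were then compared for every probe set with limma and Benjamini-Hochberg adjustment over all 47722. Of the let-7 and mir-98 probe sets 0 passed an adjusted p of 0.05, as did 0% of all probe sets, and the smallest adjusted p was 0.999974. An unadjusted p under 0.05 was reached by 2 of 18, against 3.65% of all probe sets and 5.76% of the precursor probe sets. Both of them were higher in HR, as were 2.01% of all probe sets at that p, and as the family was chosen with this contrast known, nothing is read from that count. The mean was higher in HR for 13 and lower in HR for 5, where 50.9% of all probe sets and 53.7% of the precursor probe sets had the higher mean in HR. The median difference was 0.044, against 0.018 over all precursor probe sets and 0.0022 over all probe sets. Background controls also averaged higher in HR at every number of G and C bases. At 13 such bases they averaged 2.42 in HR and 2.37 in LR, and at 15 they averaged 4.05 and 3.97. Whether this shift had a part in the direction of the dim members was not tested. Without HR2835, 11 members had the higher and 7 the lower mean in HR, with a median difference of 0.11.

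Mouse mir-98 had the values that drew attention to the family. Its lowest, median and highest log2 values were 2.32, 2.67 and 3.08 in HR animals and 1.43, 2.06 and 2.53 in LR animals. All 10 HR animals lay above the LR median and 7 above the highest LR animal, while 8 LR animals lay below the lowest HR animal. HR averaged 2.69 ± 0.25 and LR 2.02 ± 0.34 (SD of 10 animals each), with a difference of 0.67 with a standard error (SE) of 0.13. Without HR2835, whose value was 2.68, the difference was again 0.67.

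The other probe sets for mir-98 did not show that separation. Human mir-98, the brightest of the 3, had a lowest, median and highest value of 4.85, 5.61 and 5.94 in HR and of 4.89, 5.63 and 6.19 in LR, and the groups overlapped over nearly their whole range. Its means were 5.60 ± 0.31 in HR and 5.55 ± 0.37 in LR, which gave a difference of 0.048 with a 95% confidence interval from -0.25 to 0.35. Without HR2835 the difference was 0.13. Cattle mir-98 lay at 0.64, 1.5 and 3.09 in HR and at 0.86, 1.57 and 2.61 in LR, with means of 1.63 ± 0.71 in HR and 1.65 ± 0.43 in LR. That difference was -0.022, with an interval from -0.52 to 0.48, and it was -0.12 without HR2835. A transcript probe set of the array that its annotation names MIR98 had 2.39 ± 0.60 in HR and 2.65 ± 0.50 in LR, so that its difference of -0.26 had the opposite sign (95% confidence interval -0.73 to 0.22). Without HR2835 its difference was -0.38. HUWE1, the host of mir-98 and let-7f-1, lay at 8.76 ± 0.48 in HR and 8.83 ± 0.32 in LR, with a difference of -0.068 (SE 0.17). HR2835 had the highest HUWE1 value of all animals, 9.86, and without it the difference was -0.19.

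**Figure D3:**
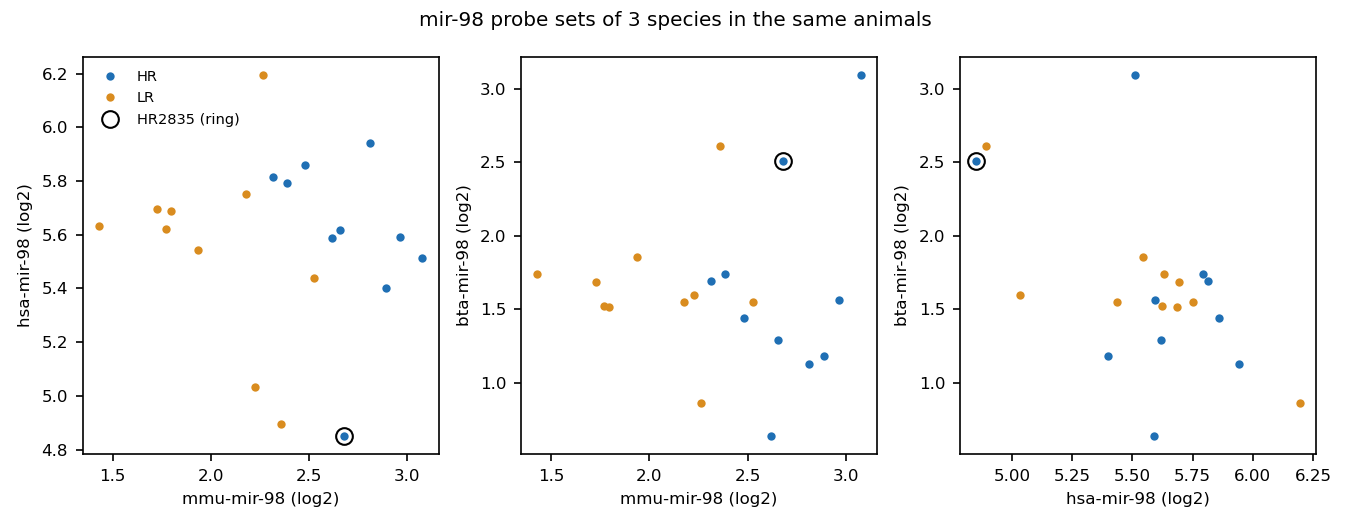
Log2 values of the mir-98 probe sets of mouse, human and cattle plotted against each other, with 1 point per animal (HR blue, LR orange, HR2835 ringed). HR animals lie to the right on the mouse axis in the left and middle panels and mix with LR animals on the human and cattle axes. In the right panel Pearson's r of the human and cattle values is -0.56 (adjusted permutation p 0.0791), and -0.47 without HR2835.

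Of the let-7b probe sets, that of cattle had the largest difference of the family and those of human and mouse had the other sign. Cattle let-7b had a lowest, median and highest value of 2.26, 4.74 and 5.77 in HR and of 4.0, 5.26 and 5.93 in LR, and low HR animals widened the range of HR. HR averaged 4.36 ± 1.34 and LR 5.16 ± 0.62, with a difference of -0.80 (SE 0.42) with a 95% confidence interval from -1.68 to 0.08. Without HR2835 it was -0.94. Human let-7b differed by 0.18 (interval -0.17 to 0.52) and mouse let-7b by 0.086 (interval -0.21 to 0.39).

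Among the let-7c probe sets the difference was larger at the dimmer one. Cattle let-7c, the dimmest member, lay at 1.14, 1.73 and 3.2 in HR and at 0.95, 1.37 and 1.71 in LR, and the highest value was that of HR2835. It averaged 1.85 ± 0.56 in HR and 1.38 ± 0.27 in LR, with a difference of 0.47 (SE 0.18), an unadjusted p of 0.0178 and an adjusted p of 0.999974 in limma. Without HR2835 the difference was 0.32. The transcript probe set annotated as ssc-let-7c lay at 1.65 ± 0.60 in HR and 1.23 ± 0.21 in LR, which gave a difference of 0.42 (SE 0.19, adjusted p 0.999974), at a level that 4.95% of the precursor probe sets fell below. Without HR2857, which lay at 3.21, that difference was 0.24. Mouse let-7c-2, at 3.44 ± 0.36 in HR and 3.3 ± 0.28 in LR, differed by 0.14 (interval -0.14 to 0.43).

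For let-7a the 4 probe sets ranged in their differences from -0.14 to 0.37. Cattle let-7a-3 averaged 3.02 ± 0.52 in HR and 2.65 ± 0.40 in LR, which gave 0.37 (SE 0.19), and 0.45 without HR2835. Cattle let-7a-1 averaged 5.14 ± 0.67 in HR and 5.28 ± 0.37 in LR, which gave a difference of -0.14 (SE 0.22), and of -0.25 without HR2835. Cattle let-7a-2 and mouse let-7a-2 differed by 0.0085 and 0.045, with intervals that reached from -0.70 to 0.72 and from -0.61 to 0.70. Without HR2835 they differed by 0.15 and -0.089, so that the sign of the mouse probe set turned.

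Pig let-7g, the member designed on a pig hairpin, had a lowest, median and highest value of 1.99, 3.3 and 4.55 in HR and of 1.74, 3.13 and 3.79 in LR. The means of 3.22 ± 0.84 in HR and 2.94 ± 0.65 in LR differed by 0.28 with an interval from -0.36 to 0.92, and the groups overlapped. The transcript probe set annotated as MIRLET7G, with 4.03 ± 0.97 in HR and 4.0 ± 1.09 in LR, differed by 0.028, and by 0.14 without HR2835. Its host gene WDR82 lay at 9.95 ± 0.23 in HR and 10.003 ± 0.14 in LR, which gave a difference of -0.053. HR2835 held its lowest value, 9.36, and without this animal the difference was 0.012.

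The remaining cattle probe sets had small differences beside their spread. Those of let-7d, let-7e, let-7f-1, let-7f-2 and let-7i were -0.12, -0.24, 0.0044, 0.043 and 0.015. Without HR2835 those of let-7d, let-7f-1, let-7f-2 and let-7i were -0.23, -0.092, 0.094 and 0.081, and that of let-7d was 0.12 without HR2897. The narrowest interval among them was that of let-7i, from -0.29 to 0.32. Transcript probe sets annotated as MIRLET7D, MIRLET7E, ssc-let-7f and ssc-let-7i differed by -0.091, 0.22, -0.077 and -0.072. Without HR2835 these differences were -0.27, 0.25, -0.0061 and -0.033.

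**Figure D4:**
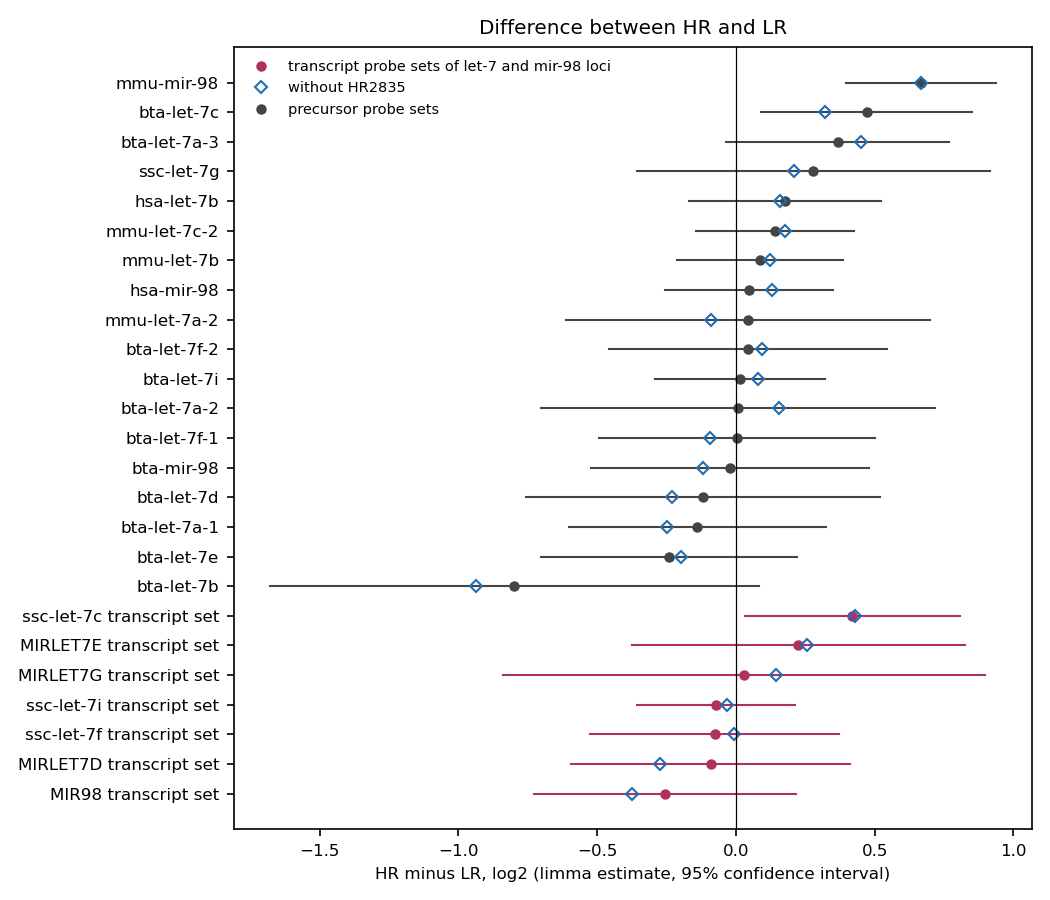
HR minus LR difference on the log2 scale (limma estimate, with 95% confidence interval as line) for the 18 precursor probe sets and, below them, the 7 transcript probe sets of let-7 and mir-98 loci; open diamonds give the estimate without HR2835. Estimates reach from -0.80 for cattle let-7b to 0.67 for mouse mir-98, and most intervals include 0.

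Without HR2835, 4 of the 18 probe sets had an unadjusted p under 0.05, against 7.89% of all probe sets and 7.75% of the precursor probe sets, and again 0 passed the adjusted threshold (0% of all). These were cattle let-7a-3 and cattle let-7b beside mouse mir-98 and cattle let-7c. As the family was chosen with this contrast known, nothing is read from this count either.

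Precursors that share clusters with let-7 genes in vertebrates, mir-99, mir-100 and mir-125, were represented by 10 probe sets. Of these 5 had the higher and 5 the lower mean in HR. Cattle mir-100 had the largest difference, with 4.45 ± 0.59 in HR and 4.89 ± 0.31 in LR (-0.44, SE 0.20, adjusted p 0.999974 in limma). The human, mouse and pig probe sets of mir-100 differed by 0.11, 0.017 and 0.15. Cattle mir-99b was the brightest of these partners, with 6.46 ± 0.29 in HR and 6.32 ± 0.41 in LR.

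Whether probe sets of different species for a precursor of the same name followed each other from animal to animal could be asked for let-7a-2, let-7b and mir-98. Pairs were matched by name alone, also among other precursors. For let-7a-2 the same number need not mean the same gene in cattle and mouse. These names gave 7 pairs, which were tested by permutation (100000 resamples, two-sided) with adjustment over the 7. The median Pearson's r was -0.14, with 5 of the 7 below 0 and 0 over 0.5, and 0 passed an adjusted p of 0.05. Among 509 pairs of 230 other precursors the median r was 0.066, 39.7% were below 0 and 4.72% were over 0.5. Among the 169 of these pairs in which both probe sets lay above the median precursor level, the median was 0.105 and 7.10% were over 0.5. Low agreement between species was thus also common in other precursors.

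**Figure D5:**
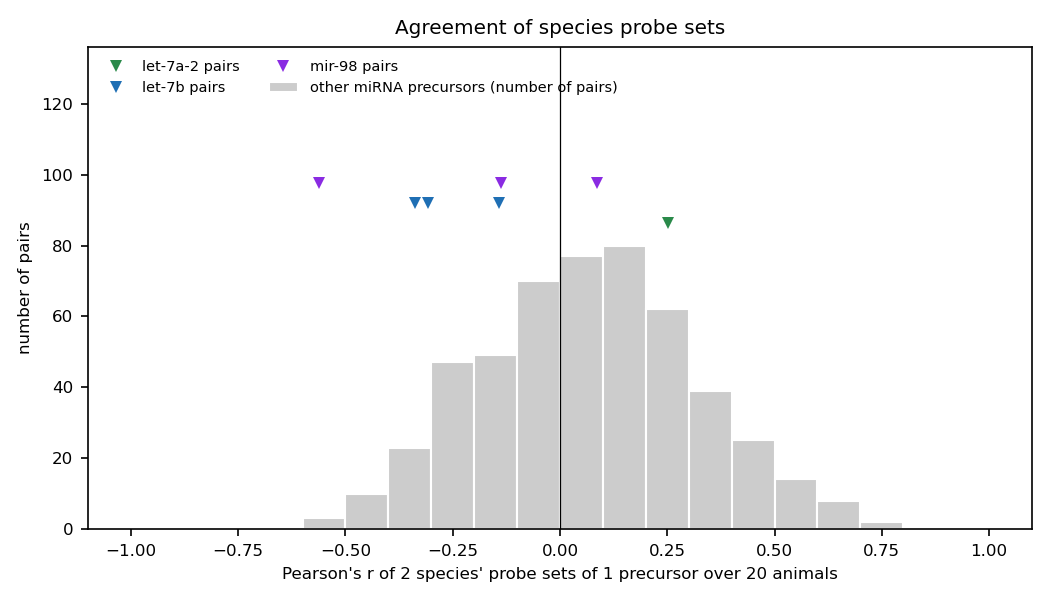
Histogram of Pearson's r over 20 animals for the 509 pairs of species probe sets of other miRNA precursors (grey, number of pairs), with the 7 pairs of let-7a-2 (green), let-7b (blue) and mir-98 (purple) as triangles above it, whose height has no meaning. The triangles lie between -0.56 and 0.25, and the median of the other precursors is 0.066.

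The pair of mir-98 from cattle and human had the lowest r of the 7, -0.56 (permutation p 0.0113, adjusted p 0.0791), with a Spearman's rho of -0.42 (permutation p 0.0651, adjusted p 0.300) over 20 animals. When the 2 animals with the most extreme cattle values were left out, r was -0.55. With HR2835 alone left out, r was -0.47 (permutation p 0.0459, adjusted p 0.165) and rho -0.34. Within HR r was -0.44 and within LR it was -0.80, and the difference between these values was not tested. The animal LR2594 had a low human value of 4.89 with a high cattle value of 2.61, and HR2835 likewise had 4.85 with 2.51. Human mir-98 lay 3.94 above cattle mir-98 and 3.22 above mouse mir-98 on the log2 scale. Mouse mir-98 correlated with that of cattle at r = 0.086 (rho -0.12) and with that of human at r = -0.14 (rho -0.27).

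For let-7b all r were below 0, with -0.34 for cattle and mouse, -0.31 for human and mouse and -0.14 for cattle and human. The cattle and mouse probe sets of let-7a-2 had the highest r of the 7, 0.25 (permutation p 0.287, adjusted p 0.502, rho 0.26). That value combined r = -0.39 within HR with r = 0.76 within LR, and the difference between the groups was not tested. Without HR2835 r was 0.46 (permutation p 0.0472, adjusted p 0.165) and rho 0.46.

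A transcript probe set of the same locus was available beside 8 members, a comparison chosen after values had been seen. All these transcript probe sets are of the type whose probes match more than 1 transcript. Whether they share probes with the members is not known from the sources used here. A positive r between them can therefore not be read as agreement of independent probes. Cattle let-7i and the ssc-let-7i transcript probe set were positively related, with r = 0.57 (permutation p 0.00919, adjusted p 0.0368 over 8 pairs) and rho = 0.55 (adjusted p 0.0527). Leaving out the 2 farthest animals gave r = 0.43. Within HR r was 0.61 and within LR 0.55, and without HR2835 it was 0.52 (adjusted p 0.175). Human mir-98 was inversely related to the MIR98 transcript probe set, with r = -0.57 (permutation p 0.00808, adjusted p 0.0368) and rho = -0.40 (adjusted p 0.128), and with r = -0.49 without the 2 farthest animals. Without HR2835 r was -0.47 (adjusted p 0.175), within HR -0.45 and within LR -0.72. Cattle mir-98 had r = 0.39 with the same transcript probe set and mouse mir-98 r = -0.0066. The pairs of let-7d (0.47), let-7g (0.26), let-7c (0.22) and let-7e (-0.11) did not pass the adjusted threshold. By rho 0 of the 8 pairs passed, and let-7d (0.53) and let-7c (0.52) had the same adjusted p of 0.0527 as let-7i.

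All 18 members gave 153 pairs, of which 70 had a positive and 83 a negative r, with a median of -0.031. An unadjusted permutation p under 0.05 was found for 7.19% of the pairs (11). That share was not computed for pairs of other precursors, so that it is not read as particular to the family. With adjustment over the 153, 1 pair passed. These were cattle let-7a-2 and cattle let-7i, with r = 0.74 (permutation p 2.2e-04, adjusted p 0.0337) and rho = 0.67 (adjusted p 0.219). Within HR r was 0.65 and within LR 0.85. Without the 2 farthest animals r was 0.69, and without HR2835 it was 0.70 with an adjusted p of 0.127, so that 0 pairs passed without this animal. Both probe sets are of the type whose probes match more than 1 transcript.

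Of the 18 members 12 were of this type (suffix s) and 4 were of the type with probes that also match unrelated sequences in the naming of the manufacturer (suffix x), mouse mir-98 among them. The remaining 2, human mir-98 and mouse let-7c-2, carried neither suffix. Over all precursor probe sets 294 of 1858 had the suffix s and 194 the suffix x. Probe sets of the family can thus share signal between members, so that values of individual precursors are uncertain.

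Genes that process or degrade let-7 precursors were measured for 10 of 12 symbols, and 0 passed limma. Their mean was higher in HR for 7 and lower for 3 (50.8% of transcript probe sets were higher in HR), with a median difference of 0.020. Without HR2835 the split was 5 and 5 and the median difference -0.0034. DICER1, which cuts the hairpin, lay at 7.42 ± 0.90 in HR and 7.57 ± 0.49 in LR, which gave a difference of -0.14 (SE 0.30), with HR2835 at 9.59 and a difference of -0.39 without this animal. LIN28B, which blocks let-7 maturation, was dim at 3.35 ± 0.23 in HR and 3.33 ± 0.22 in LR. HNRNPA1, an RNA-binding protein of let-7 hairpins, had the highest level with 10.97 ± 0.29 in HR and 11.07 ± 0.22 in LR. DIS3L2, a nuclease that degrades uridylated let-7 precursors, lay at 6.63 ± 0.19 in HR and 6.72 ± 0.24 in LR. KHSRP, a protein of let-7 processing, lay at 5.43 ± 0.22 in HR and 5.36 ± 0.15 in LR. DGCR8, the partner of Drosha, had 7.80 ± 0.16 in HR and 7.74 ± 0.14 in LR. The other probe sets of DIS3L2 differed by 0.13 and 0.034 and those of DGCR8 by -0.012, -0.019 and -0.055. For both genes these signs were opposite to that of the brightest probe set.

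Textbook targets of let-7 were measured for 21 of 24 genes. Of these 9 had the higher and 12 the lower mean in HR, with a median difference of -0.040 and 0 past the adjusted threshold. Without HR2835, 7 had the higher and 14 the lower mean, with a median difference of -0.034. An unadjusted p under 0.05 was found for 2, both lower in HR, where 1.64% of all probe sets were lower in HR at that p. THBS1, a matrix glycoprotein that inhibits vessel growth, lay at 8.43 ± 0.62 in HR and 9.06 ± 0.69 in LR (difference -0.63, SE 0.27, adjusted p 0.999974 in limma), while its dimmer second probe set differed by 0.28. CCND2, a cyclin of the G1 phase, lay at 11.24 ± 0.23 in HR and 11.44 ± 0.14 in LR (difference -0.20, SE 0.091, adjusted p 0.999974). Its other probe sets differed by -0.26, -0.19 and 0.065. Without HR2835, THBS1 kept an unadjusted p under 0.05 (difference -0.72, adjusted p 0.606 in limma) and CCND2 did not (difference -0.16, unadjusted p 0.0758). The insulin receptor gene INSR differed by -0.20 (SE 0.11), the GTPase gene NRAS by -0.11 (SE 0.093) and the receptor gene IGF1R by -0.081 (SE 0.085). The other probe sets of INSR differed by -0.11, 0.31 and -0.16.

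The mRNAs that the study predicted as targets of let-7g-5p were chosen on these same animals by their negative correlation with the mature miRNA, so that they are not independent evidence of a direction. Of 54 genes 49 were measured, and 17 had the higher and 32 the lower mean in HR, with a median difference of -0.041 and 0 past the threshold. This split rested on HR2835, whose mean over the 49 was 7.27, the lowest of all animals, while LR animals had 8.11 to 8.54. Without HR2835, 47 were higher and 2 lower in HR, against 53.4% higher of all probe sets, and the median difference was 0.089 against 0.011 over all probe sets. TMEM184B, a membrane protein gene, had the smallest p with all animals, with 8.36 ± 0.63 in HR and 8.66 ± 0.20 in LR, and HR2835 lay at 6.73. Its difference was -0.30, and -0.12 without HR2835, so that TMEM184B was 1 of the 2 genes lower in HR without this animal. LPCAT3, a lysophospholipid acyltransferase, had the highest level of the list, with 11.88 ± 0.22 in HR and 11.79 ± 0.21 in LR. Its other probe sets differed by -0.22, 0.046, 0.059 and -0.059.

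Over animals, the pig let-7g precursor probe set had a negative r with 40 of these 49 mRNAs (median r -0.13), and without HR2835 with 10 (median r 0.11). The MIRLET7G transcript probe set had a negative r with 0 of the 49 (median r 0.37) and without HR2835 with 1 (median r 0.32). With adjustment over the 49 genes 0 correlations passed for either probe set, and the smallest adjusted permutation p was 0.980 for the precursor probe set and 0.106 for the transcript probe set. Both comparisons were chosen after values had been seen.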

How the data were processed

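Adrenal glands of 20 pigs, 10 HR and 10 LR, were profiled with 1 array each, and groups were taken from the sample titles. Scans were processed by the authors in GCOS 1.1.1, followed by RMA in Expression Console. The deposited log2 values (0.37 to 14.34) were used as they stand. The table held 47845 probe sets, of which 123 controls were left out, and columns of samples not used numbered 0. The detection filter of the study was not applied, as it needs probe intensities. Names came from the annotation of the array and positions from RefSeq (Sscrofa11.1). The brightest transcript probe set stood for a gene with several.

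Differences between HR and LR were estimated by lmFit and eBayes of limma 3.58.1 (R 4.3.3, no covariate). P-values were adjusted by Benjamini-Hochberg over the 47722 probe sets, at a threshold of 0.05. Correlations over animals were computed in Python 3.11.15 with numpy 2.4.6 and 100000 permutations, adjusted within each family of pairs. Both steps were tested on simulated data. All members and host genes are named, and of each gene list up to 4 genes by p and the 2 brightest, of which a part is printed. DICER1 and LIN28B fall outside this rule and were chosen after their values were seen. Members and lists were chosen with earlier results of these data known. Alternatives were quantile normalization, median centring, a filter at the median level, a trended and robust variance model, array weights, precursor probe sets only, Spearman's rho, each group alone, averaging a gene's probe sets and leaving out each animal. The number of arrays limits the precision. Nothing in the labels pairs the animals. The limma p-values set a group difference against the spread between animals. The permutation p-values set r or rho against values from shuffled animals.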

Additional observations from a re-analysis of the deposited data

Results flagged for a closer look

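Within a group of 10 animals, 10 probe sets held a value that lay far from the nearest of the others by Dixon's criterion, among 70 groups tested, where chance gives about 1 in 20. Members were cattle let-7c in HR2835 (3.2), cattle let-7d in HR2897 (2.91), cattle let-7i in LR2639 (6.15), human mir-98 in HR2835 (4.85) and mouse let-7b in LR2579 (6.03). Transcript probe sets were MIRLET7D in HR2835 (6.73) and ssc-let-7c in HR2857 (3.21). Of the cluster partners, human mir-100 in HR2965 (2.6), mouse mir-100 in LR2793 (2.82) and pig mir-100 in LR2639 (3.97) were found. HR2835 accounted for 3 of the 10.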

How the results depend on the processing

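The number of let-7 and mir-98 probe sets past an adjusted p of 0.05 was 0 in every alternative run. The number with an unadjusted p under 0.05 was 2 with all animals, 0 among probe sets above the median level, where mouse mir-98 and cattle let-7c were not tested, and between 2 and 4 with an animal left out (4 without HR2835 and 4 without HR2965). The difference of mouse mir-98 lay between 0.60 and 0.72 over its alternatives. The median r over species pairs was -0.31 within HR and -0.31 for pairs above the median level, against -0.14 with all. Species pairs past the adjusted threshold numbered 0 with all animals, 2 within LR (let-7a-2 with r = 0.76 and cattle and human mir-98 with r = -0.80), and 0 to 1 with an animal left out (the mir-98 pair without HR2593, HR2900 or LR2639). Of the let-7g-5p targets 34.7% had the higher mean in HR with all animals, 81.6% with array weights, and 12.2% (without HR2857) to 95.9% (without HR2835) with an animal left out. The causes were not tested. No paired analysis was possible because HR and LR animals share no numbers. Dim values and unknown base composition of the probes limit what a level can show.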
